A study of Homo sapiens with 63 samples.

Results

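The deubiquitinases of the USP and OTU families were taken from the table of gene values by their symbols: USP followed by a number, or OTUB or OTUD followed by a number. This gave 53 of 11074 genes, made up of 44 USP genes and 9 OTU genes (OTUB1, OTUB2, OTUD1, OTUD3, OTUD4, OTUD5, OTUD6B, OTUD7A and OTUD7B). The study spread lysates of HEK293 cells, an established human embryonic kidney line, on polysome gradients and sequenced the poly(A)+ RNA of fractions 3 to 22. There were 3 groups, each with 1 gradient of 20 fractions: cells in log phase, cells after 2 h of starvation for serum, and cells after 1 h of starvation for amino acids in the balanced salt solution EBSS, to which MEM vitamins, serum and antibiotics had been added. All groups came from the same line grown in DMEM with serum and antibiotics, and all received cycloheximide, which holds ribosomes on mRNA, for a few minutes before lysis. With 1 gradient per group there is no replicate, so no p-value is given and the odd- and even-numbered fractions of a gradient are the only spread available. Of the 9 genes fixed as HEK293 markers 7 had a row, and none of the 4 fixed markers of blood and liver cells had one.

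Deubiquitinases are proteases that cut ubiquitin off other proteins or take ubiquitin chains apart, and so counter the E1, E2 and E3 enzymes that attach it. USP and OTU enzymes are both cysteine proteases, but with different folds. Many USP enzymes cut several kinds of chain, while OTU enzymes often prefer particular linkages. On a polysome gradient an mRNA sediments with the ribosomes and proteins bound to it. The labels leave the heavy end of the gradient unnamed, so fractions are called lower- or higher-numbered.

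The 5′ ends of a few members are shown first because mRNAs that start with C and a run of further pyrimidines, as those of ribosomal proteins do, are known to be regulated by nutrients. The windows below run 5′ to 3′, from 10 bases before the start of 1 RefSeq transcript per gene to 20 bases from it (GRCh38.p14), and capitals mark the unbroken pyrimidines at a start with C.
OTUB1, chromosome 11, plus strand: agcggtcggtagtgcggcgctgtttaaaga
USP7, chromosome 16, minus strand: cctggaaattgaagaacaagattgcactct
USP12, chromosome 13, minus strand: cgaggccgggagtgcctgagcgccggcggc
USP22, chromosome 17, minus strand: cggtgcctgcCTTgcagcctcccctcggcg
EIF3F, chromosome 11, plus strand: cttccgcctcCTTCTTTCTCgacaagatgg
The windows are chr11:63986428-63986457 for OTUB1, chr16:8949635-8949664 for USP7, chr13:27171792-27171821 for USP12, chr17:21042992-21043021 for USP22 and chr11:7987327-7987356 for EIF3F. Of the 43 members with a start in the RefSeq table, 2 (USP3 and USP46) started with C and at least 4 more pyrimidines. That is 4.65%, against 5.66% of the 8699 tested genes with a start and 64.4% of 59 ribosomal protein genes, all searched on the transcribed strand. OTUB1, USP7 and USP12, to which the results below return, did not start with a pyrimidine at the RefSeq start used. For USP7 that start lies inside the annotated gene, because USP7-AS1, which overlaps the gene, lies upstream of it. OTUD7B, among the 43 members counted, has such an inner start too, so the starts counted need not be the outermost ones. The starts used in these cells were not measured. EIF3F, a subunit of the initiation factor eIF3 with the fold of another deubiquitinase family, is shown for its start.

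The values are the authors' signal per gene and fraction. The position of an mRNA is its mean fraction number weighted by signal, and its level is the sum of its 20 values, scaled to a gradient total of 1000000. The deposited values are named as per-length units. From the unequal fraction totals it is assumed that every gene of a fraction carries the same further scale. On that assumption, levels of different genes are compared per length. All 53 members passed the filter on low signal (a mean of 5 or more in every gradient, with 15 or more of the 20 fractions above 0), as did 10889 of all genes. The deubiquitinases were a small part of the measured RNA, at 0.114% of the log phase signal, and 0.0760% and 0.0623% of that after serum and amino acid starvation. Their log phase levels ran from 0.743 for OTUD7A to 154 for OTUB1.

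In log phase most deubiquitinase mRNAs lay in the higher-numbered part of the gradient, and the USP and OTU families lay together. The highest signal was in fraction 18 or above for 33 members and in fractions 13 to 17 for 18. It was in fraction 12 or below for OTUB1 and USP21. The same count was not made over all genes, whose summed log phase signal was itself highest in fraction 18 (17.1%). The median share of signal in fractions 18 to 22 was 54.3% for USP genes, 52.9% for OTU genes and 48.5% for all tested genes. The median position was 17.23 for USP genes (range 13.52 to 18.93), 17.36 for OTU genes (13.46 to 17.72) and 16.94 for all tested genes. The OTU median was 0.12 fractions higher than the USP median, 0.18 in odd and 0.07 in even fractions. With every fraction given the same total it was 0.42 lower (OTU minus USP -0.42), so these data give the families no stable order. Members lay above the median gene in 28 of 44 USP and 7 of 9 OTU cases, and in 28 and 5 with equal totals.

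**Figure D1:**
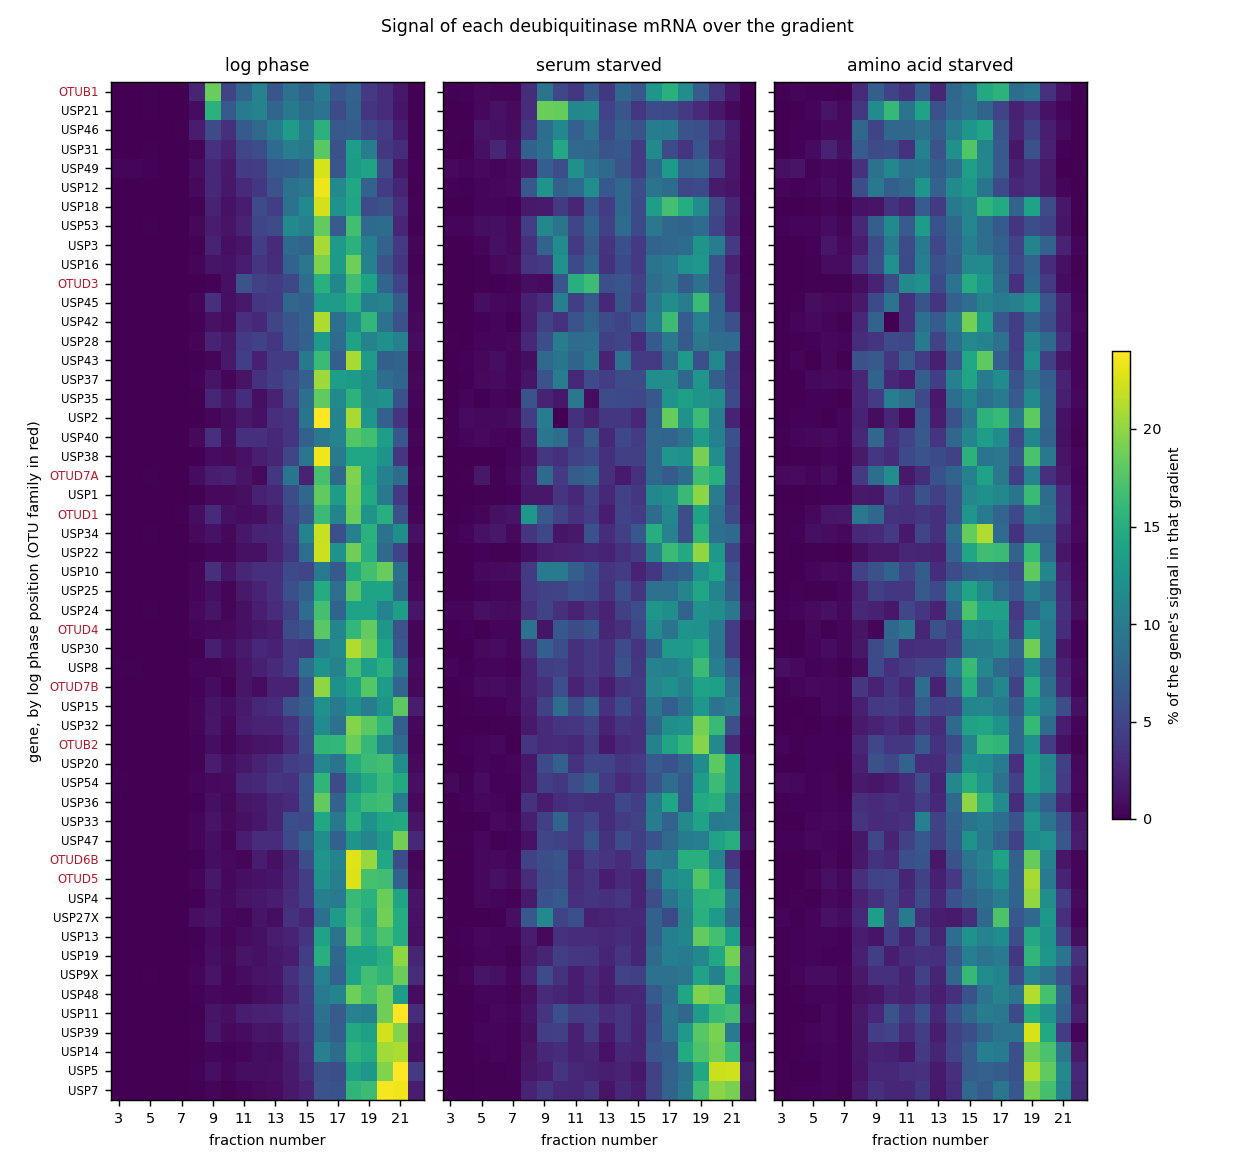
Share of each gene's own signal (colour, percent) in fractions 3 to 22 (x axis) for the 53 deubiquitinase mRNAs (rows, sorted by log phase position, OTU genes in red) in the 3 gradients. In log phase the top rows, OTUB1 and USP21, are brightest in fraction 9, and the bottom rows, USP5 and USP7, in fractions 20 and 21.

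OTUB1 and USP21 stood at the low end of the log phase gradient. OTUB1 inhibits E2 enzymes by binding them and also cuts ubiquitin chains linked through lysine 48; its gene lies on chromosome 11 from 63986438 to 63998412 (GRCh38.p14). Its log phase signal ran from 5.67 in fraction 6 through a median of 2666 to 11142 in fraction 9, which held 18.5% of it. Its position was 13.46, with 1.08% of tested genes lower, and 44.4% of its signal lay in fractions 8 to 12. USP21, an enzyme known to act on ubiquitinated histone H2A, had a log phase signal from 0.173 through a median of 466 to 1546, also highest in fraction 9. Its position was 13.52 and its share in fractions 8 to 12 was 43.4%. Both shares were far above the median gene's 7.17%. With equal totals both still lay low, with 6.05% of tested genes below OTUB1 and 5.34% below USP21. OTUB1 stood apart from its own family, whose other 8 members lay between 16.53 (OTUD3) and 17.72 (OTUD5). OTUB2, the closest relative of OTUB1 in the family, lay at 17.53.

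Next above them came USP46 at 14.54, USP31 at 15.47, USP49 at 15.75 and USP12 at 15.82. USP46 and USP12 are close relatives that are switched on by the same partner protein, WDR48. The third enzyme activated by WDR48, USP1, which acts in DNA crosslink repair, lay at 17.05.

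At the other end lay USP7 at 18.93, USP5 at 18.88, USP14 at 18.58 and USP39 at 18.33. USP7 stabilises MDM2 and p53, USP5 takes apart free ubiquitin chains, USP14 works on the proteasome, and USP39 is a splicing factor without protease activity. The log phase signal of USP7 ran from 0.647 in fraction 3 through a median of 130 to 4419 in fraction 20, and 81.2% of it lay in fractions 18 to 22. The same share was 78.9% for USP5 and 73.0% for USP14, against 48.5% for the median gene. USP7 and USP5 had 99.0% and 98.7% of tested genes below them, and with equal totals 99.0% and 99.2%. The order of USP7 and USP5 is not settled, since with equal totals USP5 lay at 18.98 and USP7 at 18.86. The large enzyme USP9X, which acts in trafficking and on signalling proteins, lay at 18.17. In all, 11 USP genes lay above every OTU gene, and 24 lay within the range of the OTU genes other than OTUB1. These counts were not made over all genes or with equal totals, so they show no difference between the families.

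After starvation the whole gradient changed, and shifts are therefore read against the median gene. The median tested gene moved by -1.35 fractions without serum and by -1.80 without amino acids. With every fraction given the same total, these medians were 1.55 and 1.72, so even the direction of the move of the whole depends on the fraction scale. The highest signal lay in fraction 18 or above for 40 members without serum and for 25 without amino acids. It lay in fraction 12 or below for 7 and 3. These counts were not made over all genes, whose summed signal was highest in fraction 9 in both starved gradients. The order among the members was largely kept. Spearman's rho over the 53 members was 0.826 between log phase and serum starvation and 0.800 between log phase and amino acid starvation. Between the starvations it was 0.889. All values of a fraction share 1 library and, as assumed above, 1 scale. Below, a shift is the change in position minus the change of the median gene. To meet the size rule, which is no test, a shift had to reach 1 fraction overall and 0.5, with the same sign, among odd and among even fractions taken separately.

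**Figure D2:**
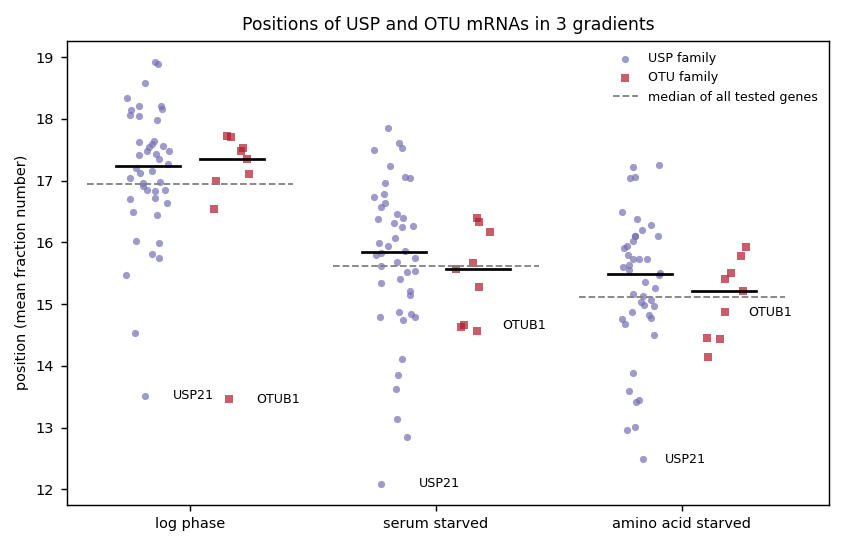
Position (mean fraction number, y axis) of each USP gene (violet circles) and OTU gene (red squares) in the 3 gradients, with family medians (black bars) and the median of all tested genes (dashed). OTUB1 is the lowest of the OTU genes in log phase at 13.46 and lies among them in both starved gradients, while USP21 is the lowest USP gene in all 3.

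Without serum 7 deubiquitinases met the size rule. Against the median gene, OTUB1, USP22 and USP18 shifted to higher and USP12, USP27X, USP31 and USP10 to lower fraction numbers. The 3 higher are 3 of 53 where 5.7% of all tested genes were called, and the 4 lower are 4 of 53 where 9.86% were called, so neither count stands out from the background. With equal totals 8 members were higher and 4 lower, with OTUB1 as the only one of the 7 among them. Over all genes the split was 621 higher and 1074 lower as deposited, and 1318 and 1422 with equal totals. Both families stayed near the median gene, with a median shift of -0.02 for USP and -0.21 for OTU genes, the latter 0.50 with equal totals.

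Among the members, the profile of OTUB1 was the one that differed most from log phase by its shift. With equal totals USP49, a low-level mRNA, was the only member with a larger shift without serum (2.81). Without serum the signal of OTUB1 ran from 16.8 in fraction 22 through a median of 924 to 3595. Without amino acids it ran from 28.4 in fraction 22 through a median of 771 to 3452. Both maxima were in fraction 17 rather than fraction 9. Fraction 9 held 18.5% of its signal in log phase, and 9.28% and 7.24% after serum and amino acid starvation, while the same fraction held 4.22%, 16.4% and 16.3% of all signal. Its position went from 13.46 to 14.66 without serum and 14.87 without amino acids. The shift was 2.55 without serum (2.98 in odd and 2.01 in even fractions) and 3.21 without amino acids (3.92 and 2.42). As deposited, these were the highest and the second highest of all 10889 tested genes. With equal totals OTUB1 was not the highest without serum, where USP49 and, outside the members, MINDY2 (2.70) had larger shifts. OTUB1 was also the only member whose position moved up without reference to the median gene, by 1.20 and 1.41 fractions. Of the tested genes 210 did so without serum and 91 without amino acids. This holds for the signal as deposited, since with equal totals the median tested gene itself moved up, by 1.55 and 1.72. With equal totals the shifts of OTUB1 were 2.39 and 3.20, and with fractions scaled to the ERCC spike-in RNAs they were 3.02 and 3.83. Leaving out each fraction in turn gave 1.90 to 2.81 and 2.54 to 3.54. After starvation 28.3% and 25.7% of the OTUB1 signal lay in fractions 8 to 12. As deposited, its position was then within the range of the other OTU genes. That range was 14.6 to 16.4 without serum and 14.1 to 15.9 without amino acids. Their median had moved from 17.42 to 15.62 and 15.30, or from 14.52 to 15.95 and 16.15 with equal totals. In fractions 18 to 22 OTUB1 had 24.1% and 22.9% of its signal, against medians of 45.1% and 29.6% for the others. In the RefSeq annotation no other gene overlaps OTUB1.

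**Figure D3:**
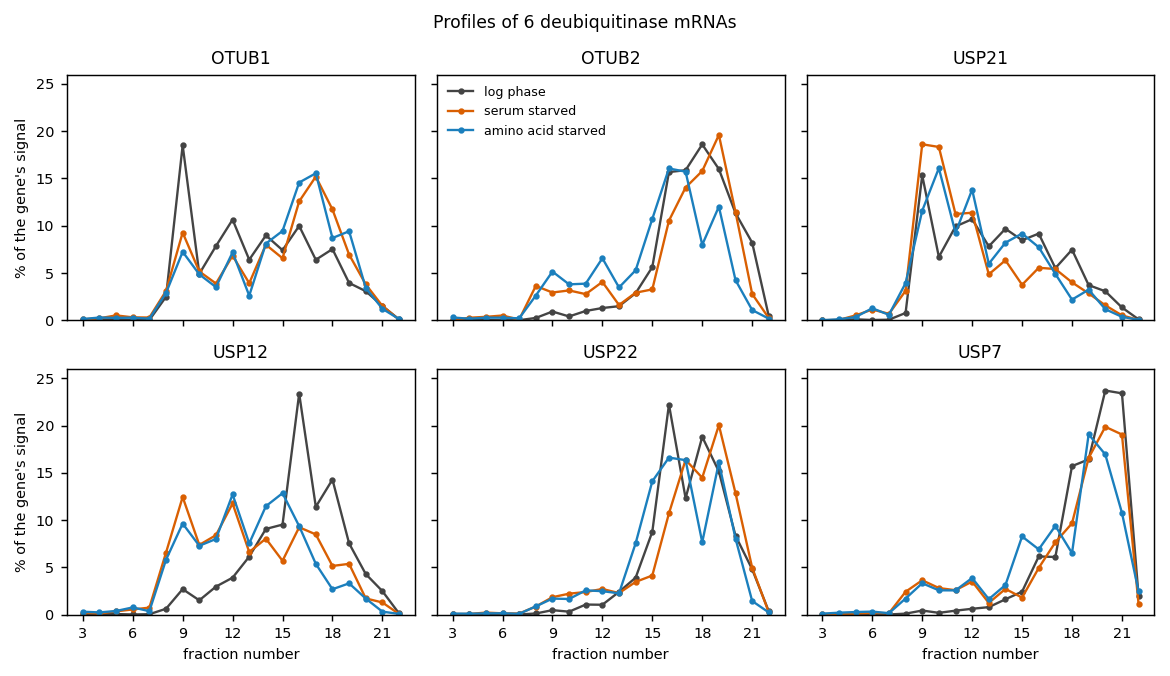
Percent of each gene's own signal (y axis) in fractions 3 to 22 (x axis) for OTUB1, OTUB2, USP21, USP12, USP22 and USP7 in log phase (grey) and after starvation for serum (orange) or amino acids (blue). The log phase maximum of OTUB1 in fraction 9 is replaced by maxima in fraction 17, USP21 keeps its maximum in fractions 9 and 10, and USP7 keeps its in fractions 19 and 20.

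OTUB2 did not do the same. It peaked in fraction 18 in log phase with a signal of 175, in fraction 19 without serum with 63.8 and in fraction 16 without amino acids with 101. Its positions were 17.53, 16.40 and 15.21, and its shifts 0.22 without serum and -0.52 without amino acids. The first of these turned to -1.28 with equal totals and to -0.32 with spike-in scaling, and the second became -2.47 and -1.11. The position of OTUB1 minus that of OTUB2 was -4.07 fractions in log phase, and -1.74 and -0.34 after serum and amino acid starvation. USP21, the other mRNA of the low end in log phase, kept its place. Its positions were 13.52, 12.09 and 12.49, its peak stayed in fractions 9 and 10, and its share in fractions 8 to 12 was 62.7% without serum and 54.7% without amino acids. So the 2 lowest members in log phase were more than 2 fractions apart in both starved gradients.

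USP22 and USP18 were the other members that shifted higher without serum. USP22 removes ubiquitin from histones as part of the SAGA coactivator, and was among the most abundant members with a log phase level of 95.8. Its signal peaked at 8316 in fraction 16 in log phase, at 1530 in fraction 19 without serum and at 1175 in fraction 16 without amino acids. Its positions were 17.15, 17.04 and 16.28, so it held its place without serum while the median gene moved down. The shift was 1.23 without serum (1.04 odd, 1.37 even) and 0.93 without amino acids, and with equal totals it was 0.04 and -0.67. USP18, which removes the ubiquitin-like ISG15, had a far lower signal, with maxima of 906 in fraction 16, 273 in fraction 17 and 272 in fraction 16. Its positions hardly moved, at 15.99, 15.86 and 15.73, and its shifts were 1.23 and 1.55 (0.47 and 0.81 with equal totals). USP18 has a near-identical copy elsewhere in the genome, and USP27X resembles USP22, so the split of reads between such genes is uncertain.

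Of the members that shifted lower without serum, only USP12 kept its call whichever fraction was left out. Its signal peaked at 999 in fraction 16 in log phase, at 116 in fraction 9 without serum and at 168 in fraction 15 without amino acids. Its share in fractions 8 to 12 went from 11.7% to 46.5% and 43.4%. The shift was -1.32 without serum (-1.25 odd, -1.37 even) and -1.01 without amino acids (-0.97 in even fractions). With equal totals it kept its direction but lay below the size rule, at -0.79 and -0.85. The shifts of its relative USP46 were 0.43 and 0.68, under the rule, but 1.11 and 1.36 with equal totals, which met it, and 1.08 and 1.31 with spike-in scaling. The position of USP12 minus that of USP46 was 1.28 fractions in log phase, and -0.47 and -0.41 after starvation. An antisense RNA gene, USP12-AS1, overlaps USP12.

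USP31, USP27X and USP10 shifted lower without serum by less stable values. USP31 went from 15.47 to 12.85 without serum and 13.45 without amino acids, a shift of -1.28 (-0.17 with equal totals) and of -0.22, which turned to 0.17. USP27X, a histone deubiquitinase like USP22, had a signal of at most 118 in log phase and 25.8 without serum. Its shift was -1.29 without serum (-0.46 with equal totals). Without amino acids its shift of -1.47 was the lowest of all members, but it did not meet the rule in both odd and even fractions. USP10, which binds the stress granule protein G3BP1 and is known to act on stalled ribosomal subunits, peaked at 2936 in fraction 20 in log phase, 545 in fraction 20 without serum and 610 in fraction 19 without amino acids. Its share in fractions 8 to 12 went from 10.8% to 37.0% without serum and 30.5% without amino acids. Its shift was -1.01 without serum (-1.08 odd, -0.94 even; -0.07 with equal totals) and -0.33 without amino acids, which turned to 0.58. The shifts of G3BP1 itself were 0.38 and 0.17, and -1.09 and -1.12 with equal totals. Leaving out a single fraction took 4 of the 7 calls below the rule. Any of fractions 7 to 11 did so for USP10, whose shift then ranged from -1.15 to -0.84 over all fractions left out. Fractions 8 and 9 did so for USP27X (-1.60 to -0.81) and fractions 18 and 19 for USP31 (-1.49 to -0.97). For USP18 it was fraction 9 alone, without which the shift was 0.97.

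Without amino acids 5 members met the size rule. OTUB1, USP18 and USP2 shifted higher, 3 of 53 where 6.84% of all tested genes were called, and USP12 and OTUD7A lower, 2 of 53 where 9.57% were called. USP2, known to stabilise cyclin D1, shifted by 1.09 on a signal of at most 301 in log phase and 72.9 without amino acids, and by 0.20 with equal totals. OTUD7A, the least abundant member, shifted by -1.05 on a signal of at most 56.1 and 15.6, and by -0.36 with equal totals. Without serum its shift of -0.08 turned to 1.01 with equal totals, without meeting the rule. Leaving out 1 fraction took USP2 (fractions 9, 10, 11, 16 and 20), OTUD7A (3, 9, 10, 18, 20 and 21) or USP12 (3, 8, 9, 17 to 20 and 22) below the rule, with ranges of 1.00 to 1.27, -1.31 to -0.83 and -1.27 to -0.72 over all fractions left out. The median shifts were -0.13 for USP genes, which turned to 0.13 with equal totals, and -0.28 for OTU genes. Both starvations are compared with the same log phase gradient, so a member that shifts in both is not seen in separate data.

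**Figure D4:**
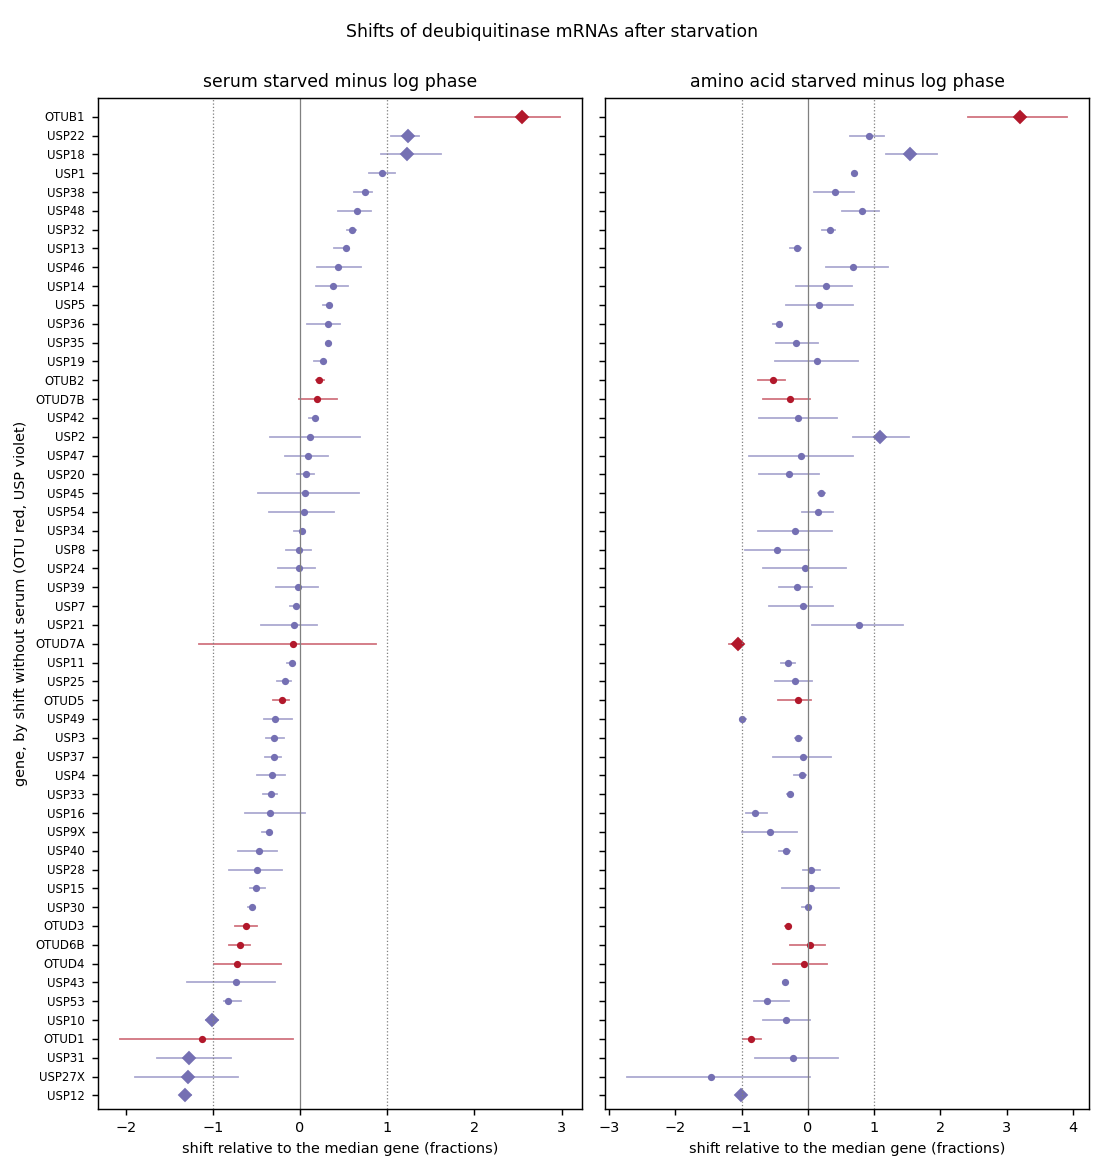
Shift of each deubiquitinase relative to the median gene (x axis, fractions) without serum (left) and without amino acids (right), sorted by the shift without serum. Points are shifts over all fractions, lines join the values from odd and even fractions, diamonds meet the size rule, and dotted lines mark a shift of 1. OTUB1 lies furthest to the right in both panels (2.55 and 3.21). With equal totals it had 2.39 and 3.20, and of the genes shown only USP49 passed it, without serum (2.81).

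The direct comparison of the starvations found 1 member past the rule. USP31 lay higher without amino acids than without serum by 1.07 (1.23 odd, 0.86 even; 0.39 with equal totals), 1 of 53 where 2.01% of tested genes were called. Without fraction 10 or 15 it missed the rule, and its range over the fractions left out was 0.84 to 1.22. No member lay lower, where 1.06% were called. Shifts in odd and even fractions went together across the 53 members for each starvation against log phase, with Pearson's r of 0.652 without serum and 0.547 without amino acids (0.562 and 0.355 without OTUB1). For the starvations against each other r was 0.155.

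Of the other OTUB and OTUD genes, OTUD7A alone met the rule as deposited, without amino acids. OTUD5, a regulator of innate immune signalling and the second most abundant of the family with levels of 54.0, 34.1 and 25.0, peaked in fractions 18, 19 and 19 and shifted by -0.21 and -0.14. OTUD3, OTUD4 and OTUD6B shifted by -0.62, -0.73 and -0.69 without serum and by -0.29, -0.06 and 0.03 without amino acids. OTUD7B, which trims chains linked through lysine 11, shifted by 0.20 and -0.28. OTUD1 shifted by -1.12 without serum but by -0.08 in odd against -2.07 in even fractions, and so missed the rule, and by -0.86 without amino acids. With equal totals several of these values changed sign: without serum OTUD1 and OTUD5 came to 1.12 and 0.50, and without amino acids OTUD1, OTUD5, OTUD6B and OTUD7B to 1.60, 0.46, -0.48 and 0.35. The rule was then met without serum by OTUD7B (1.20), OTUD6B (-1.44) and OTUB2, and without amino acids by OTUD1 and OTUB2.

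Grouped by role, no group had most of its members past the rule with the signal as deposited. Enzymes of the proteasome and of free ubiquitin chains (USP5, USP13 and USP14) had the highest log phase median position, 18.58, and none met it; their median shifts of 0.38 without serum and 0.17 without amino acids turned to -0.68 and -0.59 with equal totals. The enzymes activated by WDR48 (USP1, USP12 and USP46) had the lowest log phase median, 15.82, and median shifts of 0.43 and 0.68, both 0.13 with equal totals. The 7 measured histone H2A and H2B enzymes lay at 16.49, with USP22 higher and USP27X lower without serum and median shifts of -0.29 and -0.14 (-0.16 and -0.67 with equal totals). USP16, an H2A enzyme with levels of 45.6, 36.7 and 28.1, went from 16.49 to 14.79 and 13.89, shifts of -0.35 and -0.80 that reached -0.81 and -1.12 with equal totals. The 6 linked to ribosomes and stress granules, among them USP10, USP9X and OTUD4, had a median of -0.65 without serum (-0.42 with equal totals) and -0.18 without amino acids (0.20), with USP10 alone past the rule. The splicing group (USP4, USP15 and USP39) had -0.32 and -0.09, and -0.79 and -1.21 with equal totals, where 2 of its 3 members, USP4 and USP39, were lower without amino acids. The medians of the 9 DNA repair, 6 endosome and trafficking, and 6 innate signalling enzymes lay between -0.27 and 0.09 and changed sign with equal totals in 4 of 6 cases.

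Few deubiquitinase mRNAs met the size rule set for levels. The level is compared as a log2 ratio with a pseudocount of 1, centred on the median gene, for genes with a level of at least 5 in either gradient, and its size rule is 1 on the log2 scale with at least 0.5 in both odd and even fractions. The median gene's own log2 ratio was -0.43 without serum and -0.59 without amino acids. In bulk lysates fewer cells expressing a gene and less RNA per cell cannot be told apart. Without serum 0 of 43 members with enough signal met the rule in either direction, where 3.06% of 8199 genes were higher and 0.903% lower. After amino acid starvation 0 of 42 were called higher, against 4.96% of 8202 genes, and 2 lower, against 2.84%. Between the starvations 0 of 34 were called, against 0.187% of 7490 genes higher and 0.0401% lower.

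The 2 members lower without amino acids were USP7 and USP14. The level of USP7 was 47.7 in log phase, 18.4 after serum and 12.1 after amino acid starvation, and its log2 ratio was -0.90 without serum and -1.31 without amino acids (-1.29 odd, -1.35 even). The level of USP14 was 36.9, 13.8 and 10.5, with log2 ratios of -0.93 and -1.14 (-1.18 odd, -1.10 even). Both mRNAs lay at the high end of every gradient, where USP7 had 66.2% of its signal in fractions 18 to 22 without serum and 55.7% without amino acids. With equal totals neither met the rule, at -0.39 for USP7 and -0.21 for USP14. USP14 overlaps the gene THOC1 and USP7 the antisense gene USP7-AS1. The most abundant members kept their order: OTUB1 had levels of 154, 145 and 121, USP39 of 101, 73.6 and 60.9, USP22 of 95.8, 46.8 and 38.6, and USP1 of 75.4, 42.5 and 32.9. OTUB1 made up 13.5% of the summed deubiquitinase level in log phase, and 19.1% and 19.4% after serum and amino acid starvation. The median log2 ratio was -0.19 for USP and -0.22 for OTU genes without serum, and -0.17 and -0.39 without amino acids.

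**Figure D5:**
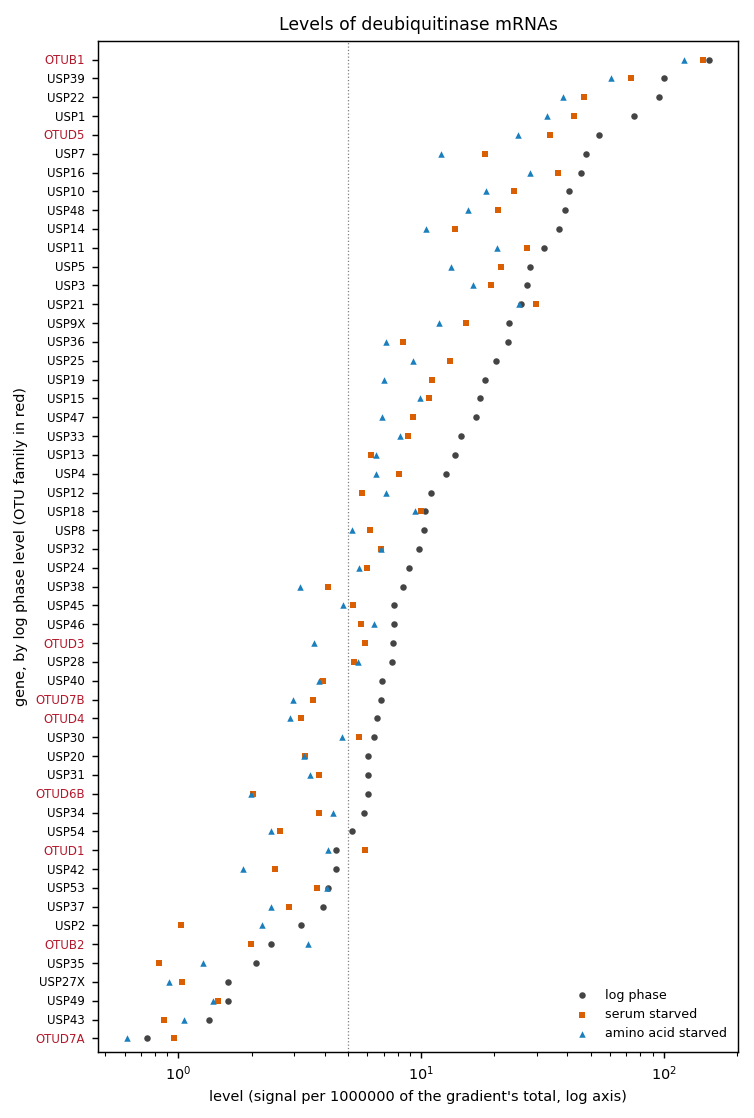
Level (sum over fractions, scaled to a gradient total of 1000000, log axis) of each deubiquitinase in log phase (grey circles) and after starvation for serum (orange squares) or amino acids (blue triangles), with OTU genes in red and a dotted line at the minimum of 5. OTUB1 has the highest level in each gradient (154, 145 and 121), and USP7 goes from 47.7 in log phase to 12.1 without amino acids.

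Other genes of the ubiquitin system included larger shifts to lower-numbered fractions. Of 68 related genes, 10 met the rule to the higher and 7 to the lower side without serum, and 11 and 6 without amino acids. Of all 10889 tested genes, 621 were higher and 1074 lower without serum, and 745 and 1042 without amino acids. With equal totals the related genes gave 3 and 11, and 7 and 10, and all tested genes 1318 and 1422, and 1419 and 1737. RPS27A, which encodes ubiquitin fused to a ribosomal protein, shifted by -2.84 without serum and by -2.77 without amino acids. The shift of the polyubiquitin gene UBB was 0.77 without serum, under the rule. Among the 10 JAMM-domain proteins the eIF3 subunits EIF3H and EIF3F shifted by -3.76 and -2.20 without serum, and the proteasome subunit PSMD7 by 2.06. EIF3F has the pyrimidine start shown above, whereas the RefSeq start of RPS27A is not a pyrimidine. Both are annotated starts of 1 transcript, so they do not show where the mRNA of these cells begins.

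Of the 29 E1 and E2 enzymes, which activate and carry ubiquitin, 7 met the rule to the higher side without serum and 9 without amino acids, and none to the lower side, where 5.7% and 6.84% of all tested genes were higher and 9.86% and 9.57% lower. The largest shifts among them were 1.58 without serum (UBE2H) and 1.98 without amino acids (UBE2A). UBE2T had 1.26 and 1.79, and UBE2E1 had 1.13 and 1.69. The list's median was 0.52 and 0.79, but 0.04 and 0.21 with equal totals, where 0 and 3 were higher and 3 and 3 lower. Of the remaining lists, UCHL1 among 4 UCH enzymes shifted higher (1.04 and 1.15, but -0.04 and -0.15 with equal totals), and GMPS, a partner of USP7, lower (-1.08 and -1.53). A list of other OTU enzymes, CYLD, MINDY enzymes and related genes had 10 tested genes. Of these MINDY1 shifted by 1.12 without serum, YOD1 by -1.76 and VCPIP1 by -1.52, the last 0.25 with equal totals. None of the 3 Josephin enzymes met the rule.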

How the data were processed

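Poly(A)+ RNA of 60 gradient fractions of HEK293 lysates was analysed. The 3 lysate samples that the labels also describe were not analysed here. The submitters' processing notes name kallisto 0.44.0, sleuth 0.29.0 and the build hg38. The deposited signal has 1 row per gene. The authors name it TPM, but the fractions have unequal totals. A further scale per fraction is inferred from this, and no label or header states it. Library depth is unknown, and no counting interval is given. The 29 ERCC rows and 1 luciferase row were kept out of the genes.

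Positions, shifts, levels and size rules were computed as defined with the results, in Python 3.11.15 with numpy 2.4.6 and pandas 2.3.3, and tested on simulated data. The alternatives were equal fraction totals, spike-in scaling, log2 weights, leaving out fractions, no centring, no filter, another pseudocount and another size rule. Coordinates and start sequences are from RefSeq (GRCh38.p14), matched by symbol.

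The members, lists and tests were chosen with earlier results of these data known. Genes named were every OTU gene, the 5 USP genes of highest mean signal, the 4 lowest and 4 highest in log phase position, those that met a size rule, a fixed set (USP1, USP5, USP7, USP9X, USP10, USP14, USP22, USP39), and up to 4 genes of each related list that met the rule for a shift. USP13, USP4, USP15, UBB and G3BP1 were named for their list after their values were seen. MINDY2 was named for its shift and USP3 for its start, also after the values were seen. Some items are not reported here. Lists followed roles and families; the replicate is the gradient, of which each group has 1.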

Additional observations from a re-analysis of the deposited data

How the results depend on the processing

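The fraction scale, the centring and the size rule set most counts of shifted members, and leaving out the filter on low signal did not change those counts. As higher and lower members, equal totals gave 8 and 4 without serum, 5 and 4 without amino acids, and 2 and 2 between the starvations, where all 10889 tested genes gave 1318 and 1422, 1419 and 1737, and 271 and 320. Spike-in scaling left 1 lower without serum, 1 lower without amino acids, and 0 higher and 1 lower between the starvations. Weighting by log2 signal left 0 in each count of shifts that was above 0. Without centring, 0 were higher in each comparison, and 42, 46 and 4 were lower. Most of the series moved down there, since only 1.93%, 0.836% and 15.7% of all tested genes had an uncentred difference above 0. A size rule of 0.5 gave 8 and 10, 7 and 7, and 7 and 4. Without the outermost fractions 0 were lower without amino acids. Leaving out each fraction in turn gave 2 to 4 higher and 2 to 5 lower without serum, 2 to 4 and 0 to 4 without amino acids, and 0 to 1 and 0 to 1 between the starvations. The 2 lower levels without amino acids became 0 with equal totals, 1 with spike-in scaling, 1 with a pseudocount of 5 and 14 without centring. Without serum 6 levels were lower without centring and 1 without the filter. Apart from the shifts with equal totals, the counts of this paragraph are given without the number called over all genes. They are therefore no result about the members. The OTU minus USP median of -0.42 with equal totals stood against -0.0022 to 0.27 without 1 fraction.

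Signs reversed for USP10 without serum (0.00716) and USP31 between the starvations (-0.050) with log2 weights, and without centring for USP18 (-0.12) and USP22 (-0.11) without serum and USP18 (-0.25) and USP2 (-0.71) without amino acids. OTUB1 kept its direction under every alternative run; with log2 weights its shifts were 0.71 and 0.91, under the rule. The cause was not tested, except that an uncentred shift differs by the median gene's own move. Protein length against log phase position was not run. No paired analysis was possible because each group has 1 gradient and the result comes from no test. Depth is unknown, so no statement here rests on a counting error.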
